A study of Sus scrofa with 6 samples.

Results

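Fatty acids are broken down in the mitochondrial matrix by beta-oxidation, in which a chain of acyl-CoA is shortened in repeated rounds and its electrons are passed to the respiratory chain. Carnitine palmitoyltransferases bring long-chain acyl groups across the mitochondrial membranes, acyl-CoA dehydrogenases take the first electrons, the trifunctional protein carries out the remaining steps on long chains, and the electron transfer flavoprotein hands the electrons on. In skeletal muscle this route is most active in oxidative fibers, which are rich in mitochondria and work for long periods.

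The genes considered here were the 10 enzymes and electron carriers CPT1A, CPT1B, CPT2, ACADM, ACADL, ACADVL, HADHA, HADHB, ETFA and ETFB. Their probes were found among the 43603 probes of a pig gene expression array by the listed gene name, by the symbol in round brackets in the description, or by the enzyme's name in the description. This search found 26 probes and 7 of the 10 genes. HADHB was reached only through 3 probes listed under LCTHIO, an older symbol of the same gene, while no probe was matched to CPT2 or ACADVL, which were not analysed here. In all, 8 of the 10 genes had a probe that passed the filter on dim signals, out of 3260 named genes that did so.

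The samples came from 3 female Landrace pigs of 210 days, which had been without feed for 24 h at slaughter. The back muscle longissimus dorsi (LDM) and the loin muscle psoas major (PMM) were each measured on 3 arrays, and each array was hybridized with the RNA of 1 sample labeled with Cy3. The question was which transcripts differ between a more glycolytic and a more oxidative muscle. Per the study's methods both muscles of every pig were used, so the 3 LDM and 3 PMM samples came from the same animals.

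The tissue was checked against markers because the extraction note in the labels speaks of adipose tissue, whereas the tissue label names muscle. All 9 slow fiber and 11 fast fiber markers on the array passed the detection filter, and the summed signal of the fast fiber markers was 4706 to 7996 in LDM and 5697 to 8949 in PMM, in units of each array's 75th percentile of signal. The 11 adipocyte markers summed to 179 to 554 in LDM and 188 to 501 in PMM. Between 58.4% and 72.4% of the probes were well above background on the 6 arrays, and no spot was saturated.

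The probes are 60 bases long, and some are shown here under the gene they were assigned to. No probe was aligned to a transcript or protein. The first pair is listed for the liver and the muscle isoform of carnitine palmitoyltransferase 1, and its CPT1A probe was too dim to be tested. The capitals mark the longest run of bases shared by any CPT1A and any CPT1B probe, 12 bases. Outside this run the sequences of the pair differ. The remaining sequences, with no capitals, were assigned to the muscle isoform, to both subunits of the trifunctional protein and to ETFB. The brightest probes of CPT1A, HADHA and HADHB, which gave the values of these genes below, are not printed. All are written 5′ to 3′ as the array lists them.
CPT1A, A_72_P409728: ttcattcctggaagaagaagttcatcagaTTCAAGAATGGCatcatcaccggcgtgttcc
CPT1B, A_72_P273299: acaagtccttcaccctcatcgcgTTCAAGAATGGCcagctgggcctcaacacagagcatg
CPT1B, A_72_P331203: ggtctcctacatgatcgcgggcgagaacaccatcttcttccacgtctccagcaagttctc
HADHA, A_72_P154966: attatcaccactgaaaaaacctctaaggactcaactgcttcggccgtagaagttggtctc
HADHB, A_72_P223742: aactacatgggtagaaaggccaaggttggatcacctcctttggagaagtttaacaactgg
HADHB, A_72_P367353: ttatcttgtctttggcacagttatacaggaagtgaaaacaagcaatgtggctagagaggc
ETFB, A_72_P073821: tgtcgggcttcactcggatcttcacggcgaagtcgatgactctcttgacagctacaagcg

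The ETFB probe differs from the others shown in its source, a read described as the 3′ end of a cDNA clone. Judged by eye, its reverse complement rather than the listed strand read as ETFB coding sequence. No protein sequence was at hand to test this, and the probe may not measure ETFB messenger RNA. It is reported because the search found it, and the counts are also given without it.

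Of the 8 genes measured, 7 had a higher mean signal in PMM than in LDM and 1, CPT1A, had a lower one. The log2 fold changes of PMM over LDM ran from -0.21 to 1.30 with a median of 0.82, against a median of -0.01 over all 3260 genes. In limma without the replicate number, 0 of the 8 genes passed an adjusted p of 0.05, as did 0 of all genes (0%). The unadjusted p was under 0.05 for 3 of the 8, namely CPT1B, HADHB and ETFB, and for 119 of all genes. With the replicate number as a block, which compares LDM and PMM arrays of the same number, 6 of the 8 passed and all 6 were higher in PMM, namely CPT1B, ACADM, ACADL, HADHA, HADHB and ETFB. In that fit 130 of all genes, 3.99%, were called higher in PMM, and 81, 2.48%, lower. Without ETFB the block called 5 of 7 genes, and the median of the 7 was 0.78.

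The calls with the block had limits. None of the 8 genes passed when quantile normalization was used together with the block or when both arrays of replicate 3 were left out, and leaving out replicate 1 or replicate 2 kept CPT1B and HADHB alone. In the first of these settings, and without replicate 3, 0 of all 3260 genes were called, so the calls with the block given below for other genes were lost there too. The median change of the 8 genes was 0.54 when PMM replicate 1 was left out. LDM and PMM of replicate 1 lay on separate slides, so muscle and slide cannot be told apart in that pair. The arrays of replicate 2 shared a slide, as did those of replicate 3.

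**Figure D1:**
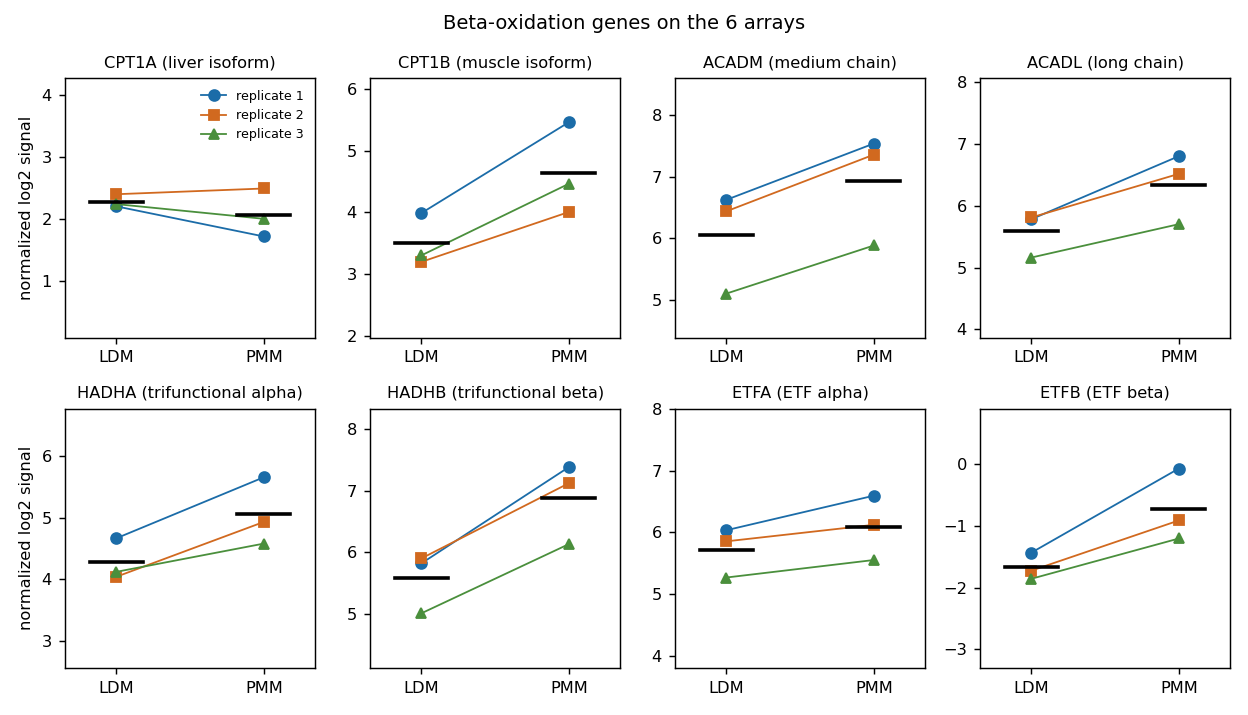
Normalized log2 signal (y axis) of the 8 genes on the LDM and PMM arrays (x axis), 1 panel per gene, each spanning the same 4.2 log2 units. Points joined by a line are arrays with the same replicate number and black bars are group means; the lines rise in all 3 pairs for every gene except CPT1A, and replicate 3 lies lowest in both muscles for ACADM, ACADL, HADHB, ETFA and ETFB.

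CPT1 controls the entry of long-chain fatty acids into mitochondria, and its muscle isoform, CPT1B, is the main form in skeletal muscle and heart. The normalized log2 signal, which is 0 at the array's 75th percentile, was 3.99, 3.20 and 3.30 for CPT1B in LDM replicates 1, 2 and 3. In PMM replicates 1, 2 and 3 it was 5.46, 4.0 and 4.46. The lowest PMM array thus lay just above the highest LDM array, and replicate 1 was the highest of both muscles. LDM averaged 3.49 ± 0.43 (SD, n = 3), and PMM averaged 4.64 ± 0.74 (SD, n = 3). This is a fold change of 2.21, or 1.15 on the log2 scale (SE 0.43), with an adjusted p of 0.999 from limma without the block and 0.00361 with it. An exact two-sided permutation test over the 6 arrays gave p = 0.1, the smallest that 3 against 3 arrays allow. The other CPT1B probes gave log2 fold changes of 1.13 and 1.07.

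CPT1A, the form that predominates in liver, was the gene that did not share this direction. Its brightest probe read 2.20, 2.40 and 2.24 in LDM replicates 1 to 3 and 1.72, 2.49 and 2.0 in PMM. The groups overlapped, since PMM replicate 2 was the highest array of all and PMM replicate 1 the lowest. The log2 fold change was -0.21 (SE 0.31, 95% interval -0.91 to 0.49), with an adjusted p from limma of 0.999 without the block and 0.645 with it. A second CPT1A probe gave -0.29, and all 3 PMM arrays lay below all 3 LDM arrays. How many of all probes did so was not counted. Its adjusted p from limma over probes with the block was 0.609. The third, shown above, was well above background on 0 LDM arrays and 1 PMM array and was not tested. The CPT1B probe that shares 12 bases with it was measured on all 6. Whether those probes cover matching parts of the genes was not tested, so their signals are not compared.

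The change of CPT1B exceeded that of CPT1A by 1.36 ± 0.62 (SD, n = 3 pairs) on the log2 scale, with 1.96, 0.72 and 1.40 for replicates 1, 2 and 3. All 3 pairs went the same way. An exact permutation test that reassigned the 6 arrays without regard to pairs gave p = 0.2, or 0.450 after Benjamini-Hochberg adjustment over the 3 pairs of genes compared in this way. Such a test of 3 against 3 arrays cannot go below 0.1, so it could not have passed 0.05 and says nothing on whether the isoforms differed.

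ACADM, the medium-chain acyl-CoA dehydrogenase, read 6.62, 6.44 and 5.10 in LDM replicates 1 to 3 and 7.53, 7.35 and 5.88 in PMM. Replicate 3 was low in both muscles, so that the groups overlapped although PMM was above LDM in each pair, by 0.91, 0.92 and 0.78. The spread within LDM, 1.52 from lowest to highest, was larger than the mean difference of 0.87 (SE 0.56). The adjusted p from limma was 0.999 without the block and 0.0113 with it.

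ACADL, the long-chain acyl-CoA dehydrogenase, read 5.78, 5.81 and 5.16 in LDM and 6.80, 6.52 and 5.70 in PMM. PMM replicate 3 lay below LDM replicates 1 and 2, and the pairs differed by 1.02, 0.71 and 0.54. The fold change was 1.69, or 0.76 on the log2 scale (SE 0.38), with an adjusted p from limma of 0.999 without the block and 0.0291 with it. ACADM and ACADL changed by amounts that differed by 0.11, with an exact permutation p of 0.700, and the difference was -0.11, 0.21 and 0.24 in the 3 pairs, so neither was ahead of the other in every pair. A further probe described as a medium-chain dehydrogenase was above background on 2 arrays of each muscle and was not tested.

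HADHA and HADHB encode the alpha and beta subunits of the mitochondrial trifunctional protein. The alpha subunit holds the enoyl-CoA hydratase and 3-hydroxyacyl-CoA dehydrogenase activities, and the beta subunit holds the thiolase that releases acetyl-CoA. The normalized log2 signal of HADHB was 5.82, 5.90 and 5.01 in LDM replicates 1 to 3. In PMM it was 7.38, 7.12 and 6.13. All PMM arrays were above all LDM arrays. LDM averaged 5.58 ± 0.49 (SD, n = 3), and PMM averaged 6.88 ± 0.66 (SD, n = 3), a fold change of 2.46. This was the largest change among the 8 genes, 1.30 on the log2 scale (SE 0.42), with an adjusted p from limma of 0.999 without the block and 0.00109 with it. The other HADHB probes, both shown above, gave 1.34 and 1.36.

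HADHA read 4.67, 4.04 and 4.12 in LDM and 5.65, 4.93 and 4.58 in PMM on its brightest probe. PMM replicate 3 lay just below LDM replicate 1, and the other arrays did not overlap. The log2 fold change was 0.78 (SE 0.37), a fold of 1.72, with an adjusted p from limma of 0.999 without the block and 0.0265 with it. The 3 other HADHA probes gave 0.85, 0.78 and 0.41. The last of these had no value for PMM replicate 1, whose spot was an outlier, and reached 0.62 with the block, where that pair drops out. HADHB changed by 0.52 ± 0.17 (SD, n = 3 pairs) more than HADHA, with 0.57, 0.33 and 0.66 in the 3 pairs, all of the same sign. The unpaired exact permutation test, which is bound by the limit given above for CPT1, had p = 0.300, or 0.450 after adjustment over the 3 comparisons.

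**Figure D2:**
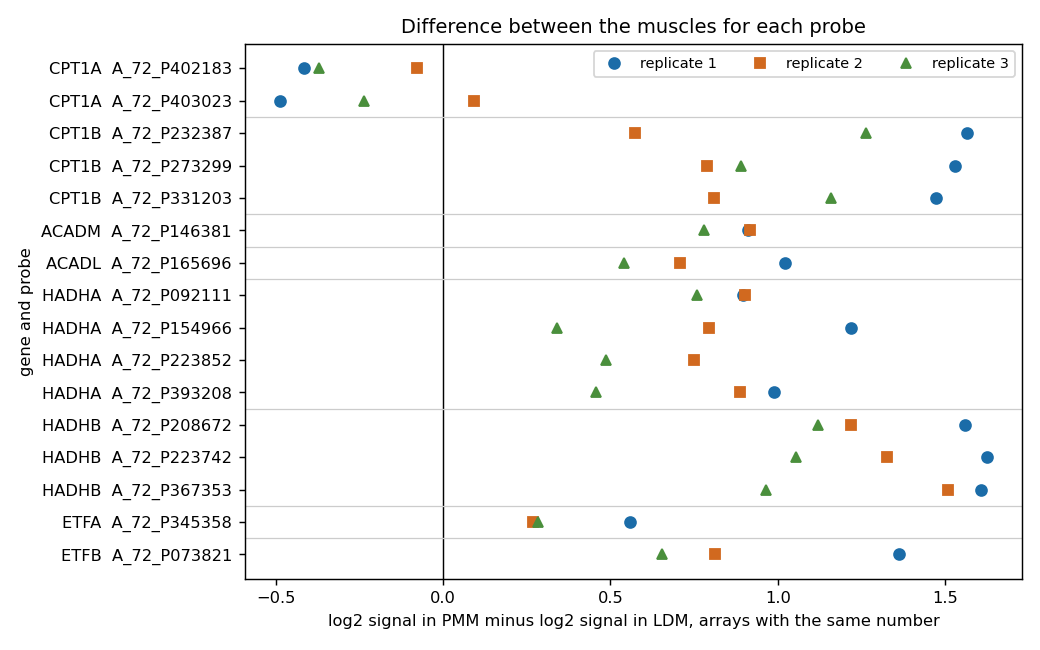
Difference in normalized log2 signal between PMM and LDM arrays of the same number (x axis) for each of the 16 tested probes (y axis), with 1 marker per replicate number. All 14 probes of genes other than CPT1A lie to the right of 0 in every pair measured, the 3 HADHB probes between 0.97 and 1.63, and both CPT1A probes lie mostly to the left; the strand of the ETFB probe is not settled.

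ETFA and ETFB encode the subunits of the electron transfer flavoprotein, which accepts electrons from the acyl-CoA dehydrogenases. ETFA read 6.03, 5.85 and 5.27 in LDM and 6.59, 6.12 and 5.55 in PMM. The groups overlapped, while the pairs differed by 0.56, 0.27 and 0.28 in the same direction. Its log2 fold change was 0.37 (SE 0.37), with an adjusted p from limma of 0.999 without the block and 0.308 with it, and the 95% interval with the block, -0.03 to 0.77, included both no change and a change as large as that of ACADL.

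The ETFB probe, whose strand is not settled, read -1.43, -1.72 and -1.86 in LDM and -0.07, -0.91 and -1.20 in PMM. Every PMM array was above every LDM array, with replicate 1 the highest of each muscle. The log2 difference was 0.94 (SE 0.36), with an adjusted p from limma of 0.999 without the block and 0.0113 with it.

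**Figure D3:**
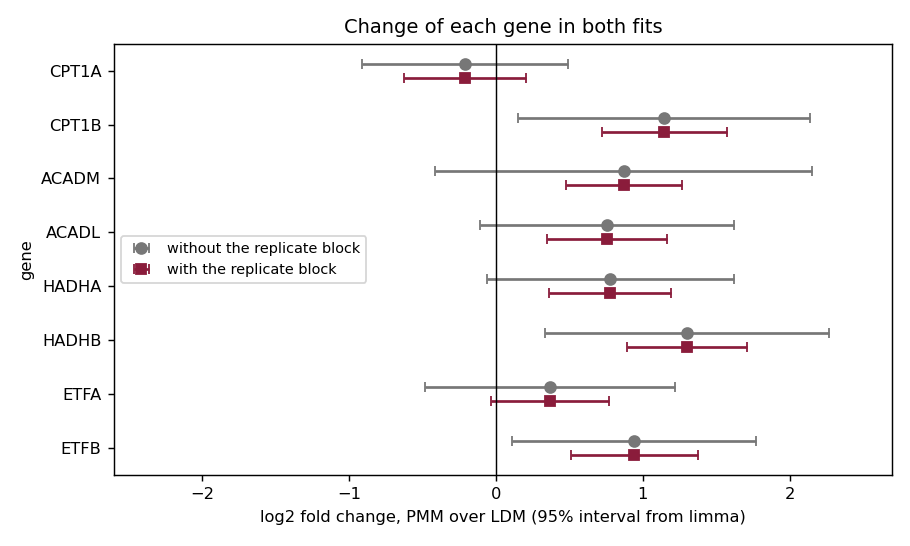
Log2 fold change of PMM over LDM (x axis) for the 8 genes (y axis) with 95% intervals from limma, without the block (gray circles) and with the replicate block (red squares). The estimates are the same in both fits and the intervals are narrower with the block, where those of 6 genes lie above 0 and those of CPT1A and ETFA include 0.

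Set side by side, 3 of the 8 genes (CPT1B, HADHB and ETFB) had all PMM arrays above all LDM arrays, compared with 3.93% of all genes. None of the 8 had all below, a direction that was not counted over all genes. PMM exceeded LDM in 3 of 3 pairs for 7 of the 8 genes, compared with 19.8% of all genes. The median change of the 8 genes was 1.01 for replicate 1, 0.81 for replicate 2 and 0.60 for replicate 3, and the median of all genes was 0.12, 0.04 and -0.20 in the same pairs. In the third pair, where 30.7% of all genes were higher in PMM, 7 of the 8 were. Without ETFB, 2 of 7 genes did not overlap and 6 of 7 were higher in every pair.

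Across the 6 arrays, each gene was also compared with the mean of the others after standardizing. Pearson's r was 0.99 for ACADL, 0.97 for HADHB, 0.94 for ACADM, 0.92 for ETFA, 0.90 for ETFB, 0.89 for HADHA and 0.71 for CPT1B, and it was -0.50 for CPT1A. These values describe 6 arrays that share their muscle and replicate number, and so hold both the difference between muscles and that between replicate numbers. CPT1B had the lowest value among the genes with a higher mean in PMM, and its replicate 3 was above its replicate 2 in both muscles.

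When every probe was tested by itself over all 25835 detected probes, none of the 16 probes of the 8 genes was called in either fit. The lowest adjusted p from limma with the block was 0.155, while the unadjusted p was under 0.05 for 6 of the 16 without and 13 with the block, compared with 679 and 2857 of all 25835 probes. The block called 8 of all probes, 0.0310%, higher in PMM. Of the 16 probes, 14 were higher in PMM, and 4 had all PMM arrays above all LDM arrays, against 3.11% of all probes. For 1 probe, of CPT1A, all lay below. The share of all probes with this was not counted, so no result is read from it. The calls for genes thus depended on the fit over named genes only, with 1 probe each. The number of tests was not all that differed. For the same HADHB probe, the unadjusted p from limma with the block was 9.04e-06 in the fit over genes. In the fit over probes it was 5.03e-04. The estimate with the block was 1.30 in both fits, while the SE was 0.190 over genes and 0.179 over probes. The interval was nevertheless wider over probes, 0.85 to 1.75, than over genes, 0.89 to 1.71. The p and the interval of this probe thus did not follow the SE alone, and depended on the set of genes or probes fitted together.

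The same search reached other acyl-CoA enzymes through their descriptions. HADH, the short-chain 3-hydroxyacyl-CoA dehydrogenase, read 5.60, 5.10 and 4.81 in LDM and 6.73, 5.61 and 5.10 in PMM, with overlapping groups. Its log2 fold change was 0.64 (SE 0.45), with an adjusted p from limma of 0.999 without the block and 0.0899 with it. ACADSB, which acts on short branched chains, had a change of 0.61 (SE 0.38), and ACAD10, a less studied member of the family, one of 0.13 (SE 0.59), both on brighter probes of these genes that the search did not use. The ACADSB probe that the search found was above background on 0 arrays. For ACAD10 the search found a tested probe with a change of -0.08, opposite in sign to the brighter one. A further 7 probes carried descriptions of microbial enzymes and were given no gene; 4 of them were tested, with changes from -0.65 to 0.49.

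Genes next to these steps were described by lists. In these and the marker lists below, each SE is from limma without the block unless stated, while the calls are from the fit with it. Among the other mitochondrial beta-oxidation and carnitine genes, 12 of 12 tested had a higher mean in PMM, with a median of 0.24. The block called 1 of them, ACADS, the short-chain acyl-CoA dehydrogenase, with a change of 0.75 (SE 0.40 without the block, 0.20 with it). Its adjusted p from limma with the block was 0.0361. HADH was described above, and ECI2, an enoyl-CoA isomerase, had 0.64 (SE 0.59). In the list for fatty acid uptake and activation, upstream of CPT1, 9 of 11 genes had a higher mean in PMM with a median of 0.65. The block called 3 of these, all higher: FABP3, the fatty acid-binding protein of muscle and heart, with a change of 2.16 (SE 0.46), LPL, which frees fatty acids from circulating lipoproteins, with 1.12 (SE 0.34), and PNPLA2, which opens the breakdown of stored triglyceride, with 0.80 (SE 0.40).

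Beta-oxidation in peroxisomes is a separate route, and 3 of its 4 tested genes had a higher mean in PMM, with a median of 0.10 and none called. Among these, SCP2 had 0.43 (SE 0.31) and HSD17B4 had 0.19 (SE 0.35). Among 14 regulators of fatty acid oxidation, 7 were higher and 7 lower, with a median of -0.02. The block called PPARGC1A, a coactivator that drives mitochondrial gene expression, with a change of 0.90 (SE 0.40 without the block, 0.20 with it). Its adjusted p from limma with the block was 0.0136. ACACA, whose product malonyl-CoA inhibits CPT1, had 1.36 (SE 0.93), set by PMM replicate 1 at -0.66 while the other PMM arrays lay at -4.38 and -4.51. RXRG, a retinoid X receptor, had -0.72 (SE 0.59).

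Downstream of acetyl-CoA, 15 of 15 genes on the tricarboxylic acid cycle list had a higher mean in PMM, with a median of 0.51. MDH1 was among those the block called higher (1.08, SE 0.44). It was on the list although it encodes a malate dehydrogenase of the cytosol, outside the mitochondrial cycle. MDH2, the mitochondrial malate dehydrogenase, had 0.58 (SE 0.53) and was not called, with an adjusted p from limma of 0.108 with the block. In the respiratory chain and ATP synthase, 8 of 8 genes had a higher mean in PMM with a median of 0.53, and the block called NDUFA4 (0.70, SE 0.29) and ATP5A1 (0.70, SE 0.41), both higher, while ATP5O had 0.62 (SE 0.32). Glycolysis genes were 4 higher and 7 lower of 11, with a median of -0.07. LDHB, the lactate dehydrogenase subunit typical of oxidative muscle, was the only glycolysis gene that the block called, higher in PMM by 1.07 (SE 0.36), while GPI had -0.71 (SE 0.65) and TPI1 -0.44 (SE 0.63).

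**Figure D4:**
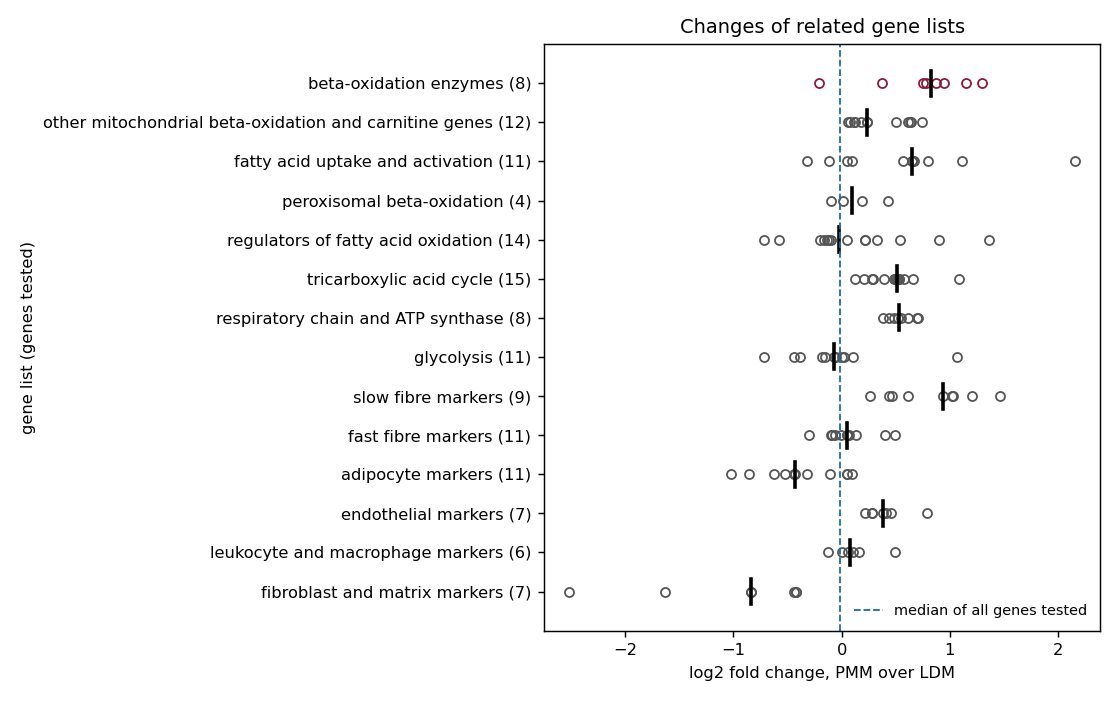
Log2 fold change of PMM over LDM (x axis) for the tested genes of each list (y axis, number tested in brackets), with 1 circle per gene, black bars at list medians and a dashed line at the median of all genes, -0.01. The 8 beta-oxidation enzymes (red) have a median of 0.82, the slow fiber markers 0.93 and the fibroblast and matrix markers -0.83.

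Mean signals of markers for fiber and cell types also differed between the muscles. The part of tissue make-up in the changes of the beta-oxidation genes was not tested. In bulk tissue, fewer cells of a type and less RNA per cell cannot be told apart. All 9 slow fiber markers had a higher mean in PMM, with a median of 0.93, and their summed signal was 1831 to 2505 in LDM and 2647 to 4286 in PMM, without overlap. The block called 5 of them higher, MB (1.47, SE 0.40), ATP2A2 (1.21, SE 0.43), TNNI1 (1.03, SE 0.34), MYOZ2 (1.02, SE 0.32) and TPM3 (0.93, SE 0.34). These encode myoglobin, the slow calcium pump, slow troponin I, a Z-disc protein and a slow tropomyosin. Of the slow fiber markers not called, MYL2 had 0.61 (SE 0.29) without overlap of the groups. MYH7, the slow myosin heavy chain, had 0.46 (SE 0.36), CASQ2 0.435 (SE 0.62) and TNNT1 0.26 (SE 0.30), all with overlapping groups. Of the fast fiber markers 6 of 11 were higher, with a median of 0.05 and none called, and MYH2 had 0.49 (SE 0.43), TNNT3 0.40 (SE 0.33) and CASQ1 -0.30 (SE 0.58).

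Markers of cells other than muscle fibers went both ways. The fibroblast and matrix markers had a lower mean in PMM in 7 of 7 genes, with a median of -0.83 and summed signals of 134 to 291 in LDM and 97.1 to 198 in PMM, and the block called 4 lower: TNMD (-2.52, SE 0.56), POSTN (-1.63, SE 0.58), COL1A2 (-0.84, SE 0.53) and COL1A1 (-0.83, SE 0.52). Of 11 adipocyte markers 8 had a lower mean, with a median of -0.43. The block called PLIN1 (-1.03, SE 0.62) and CIDEC (-0.86, SE 0.56) lower, while ADIPOQ had -0.63 (SE 0.47). The groups overlapped for PLIN1 and CIDEC. PLIN1 was dim, at -5.51 in PMM replicate 1, and its pairs differed by -1.79, -0.63 and -0.66. Those of CIDEC differed by -1.29, -0.67 and -0.61. Endothelial markers had a higher mean in PMM in 7 of 7 genes, with a median of 0.38, summed signals of 55.0 to 169 in LDM and 96.1 to 165 in PMM, and none called. ENG had 0.79 (SE 0.50), CDH5 0.46 (SE 0.36) and TEK 0.41 (SE 0.42). Of 6 leukocyte and macrophage markers 5 had a higher mean, with a median of 0.08 and none called, and CD3E had 0.49 (SE 0.67), CD14 0.16 (SE 0.57) and LYZ -0.12 (SE 0.93). No erythrocyte marker on the list was matched to a probe.

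The order of the arrays in the beta-oxidation genes was shared most closely with 5 other named genes, taken by Pearson's r over the 6 arrays with the mean of the 8 standardized genes. These were NDUFA8, a subunit of respiratory complex I (r = 0.995), ATP5O, a subunit of ATP synthase (0.991), MPC2, part of the mitochondrial pyruvate carrier (0.988), SLC16A1, a monocarboxylate transporter (0.987), and PLA2G7, a secreted phospholipase (0.986). Their log2 fold changes were 0.53, 0.62, 0.58, 0.98 and 0.95, and of the 5, the block called SLC16A1 and PLA2G7. The likeness rests on 6 arrays and was selected from all named genes, so no test was attached to it.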

How the data were processed

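Cy3-labeled RNA of 3 LDM and 3 PMM samples was hybridized to a pig oligonucleotide array. The authors deposited intensity values per spot from Agilent Feature Extraction version 10.5.1.1, per the file headers, which were already background-subtracted (processed signal). They also deposited a value table of the same arrays, which held processed intensities. These differed from the scanner values by at most 0.005, and the table served as an alternative. The study names a genome build for its sequencing reads; the one behind the array's probe annotation was not given in the sources used here.

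Processed signals were taken to log2, and each array's 75th percentile was subtracted. Control and outlier spots were left out, and spots of a probe were averaged. Testing was limited to the 25835 probes that stood well above background on every array of LDM or of PMM, with 2 or more values in each. Genes were named by RefSeq accession (3055 probes), gene number (1230), the name in the files (1423), an older symbol (75) or the search described above (5), with RefSeq tables for Sscrofa11.1; 16 probes with several genes and 37799 without a name were not used as genes. The brightest probe stood for a gene. Other probes are given only for the beta-oxidation genes and the genes found by the search. For the remaining listed genes, further probes were not compared one by one.

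Differences between the muscles were fitted in limma 3.58.1 (R 4.3.3), with Benjamini-Hochberg adjustment over all genes or all probes, at 0.05, without a block and with the replicate number as a block. The labels give the numbers but not what they stand for. The deviations of same-numbered arrays from their muscle means correlated at 0.62, 0.70 and 0.56, and both muscles came from the same 3 pigs, so the numbers were taken to pair the samples. Replicate number and scan day coincided, so pig and scan day cannot be told apart. Replicates 2 and 3 each lay on a slide of their own, and LDM 1 and PMM 1 on separate slides. Precision is limited by 3 arrays per muscle. Scripts were tested on simulated data.

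The members and lists were chosen with earlier results of these data known. Named were the 10 genes and those found by description, the 3 largest changes of each list and any gene called, and the 5 genes most alike. Some genes that this rule names are not reported here. Alternatives were other normalizations, background correction, detection filters, outlier spots kept, the value table, blocks, the mean of a gene's probes and single arrays left out. Leaving out HADHB or ETFB was added after seeing the data.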

Additional observations from a re-analysis of the deposited data

How the results depend on the processing

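No gene changed direction under the alternatives run on single genes: over 21 settings the log2 fold change was -0.42 to -0.03 for CPT1A, 0.74 to 1.47 for CPT1B, 0.39 to 1.39 for ACADM, 0.52 to 1.08 for ACADL, 0.48 to 1.02 for HADHA, 1.02 to 1.67 for HADHB, 0.12 to 0.64 for ETFA and 0.56 to 1.18 for ETFB. Calls depended on pairing. With the replicate block, genes called went from 0 to 211, probes called from 8 to 17 and the beta-oxidation genes called from 0 to 6, or to 5 without the probes found through an older symbol and to 5 without the ETFB probe of unsettled strand. Block and quantile normalization together called 0 genes and 0 probes. The block without replicate 1 called 140 genes, 529 probes and 2 of the beta-oxidation genes, and slide as a block, where the same arrays carry the fit, gave the same counts of 140, 529 and 2. Without replicate 2 the block called 139 genes, 1 probe and 2 of the beta-oxidation genes, and without replicate 3 it called 0 of each. Without a block 8 probes were called, against 7 with quantile normalization, 9 with median centring, 8 with the value table, 1 with normexp background correction and 0 with the percentile over probes detected on all arrays, with outlier spots kept, without a detection filter, or with detection on all 6 arrays, and 0 to 1 with any array left out. The median change of the 8 genes was 0.59 with normexp, and 0.54 without PMM replicate 1 to 1.13 without PMM replicate 3. The cause of these shifts was not tested. No scaling moved the median of all genes by more than 0.1. Restricting the genes to probes whose translation matches the RefSeq protein was not run.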
